A study of Mus musculus with 6 samples.

Results

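The genes described here encode 9 surface proteins with which a macrophage costimulates or restrains T cells: Cd40, Cd80, Cd86, Cd274, Pdcd1lg2, Icosl, Cd276, Havcr2 and Vsir. They were chosen by gene symbol, and each of the 9 matched 1 of 25206 gene-level features of the arrays. Thioglycollate-elicited peritoneal macrophages, which are phagocytes drawn into the abdominal cavity by an irritant broth, came from 3 Tet2-/- mice and from 3 wild-type littermates, all on the C57BL/6J background. Cells were collected 4 days after the injection, plated, and given 10 ng/mL lipopolysaccharide with 2 ng/mL interferon gamma for 10 h, so both genotypes were stimulated and no unstimulated culture is compared. Tet2 oxidises 5-methylcytosine in DNA. The sources used here do not give the deleted part of Tet2, the age or the sex of the mice, or the share of other cells in the cultures.

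A T cell that meets antigen on a macrophage also reads a second layer of surface signals. Proteins of the B7 family, built from immunoglobulin-like domains, carry most of them: CD80 and CD86 engage CD28, which activates, and CTLA-4, which restrains, whereas PD-L1 and PD-L2 engage the inhibitory receptor PD-1 and ICOS ligand engages ICOS on activated T cells. CD40 works the other way round, receiving the signal of CD40 ligand on T cells and raising the macrophage's capacity to present antigen. TIM-3, encoded by Havcr2, and VISTA, encoded by Vsir, dampen responses, and lipopolysaccharide with interferon gamma is a classical inducer of CD40, CD86 and PD-L1 in macrophages.

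The promoter of Icosl is shown because Icosl was the member whose level differed between the genotypes, and those of Cd274 and Cd80 because they belong to B7 relatives for which no difference passed the test. Each window runs from 250 bases before to 50 bases after the gene's start in RefSeq on build GRCm38.p6 (Icosl at chr10:78069118-78069417, Cd274 at chr19:29367188-29367487 and Cd80 at chr16:38458683-38458982, all on the plus strand). Capitals mark matches to the motifs searched.
Icosl: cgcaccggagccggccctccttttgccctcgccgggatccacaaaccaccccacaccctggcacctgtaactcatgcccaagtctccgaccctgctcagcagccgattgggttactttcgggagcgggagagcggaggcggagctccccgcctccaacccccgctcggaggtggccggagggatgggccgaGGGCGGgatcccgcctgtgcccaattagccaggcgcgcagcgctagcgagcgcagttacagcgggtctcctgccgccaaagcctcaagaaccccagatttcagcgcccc
Cd274: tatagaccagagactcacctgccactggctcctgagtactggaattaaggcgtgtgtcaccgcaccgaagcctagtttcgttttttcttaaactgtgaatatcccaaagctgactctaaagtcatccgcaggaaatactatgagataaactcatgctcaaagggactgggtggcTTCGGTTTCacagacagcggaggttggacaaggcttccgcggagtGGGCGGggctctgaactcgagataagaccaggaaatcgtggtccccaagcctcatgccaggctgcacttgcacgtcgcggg
Cd80: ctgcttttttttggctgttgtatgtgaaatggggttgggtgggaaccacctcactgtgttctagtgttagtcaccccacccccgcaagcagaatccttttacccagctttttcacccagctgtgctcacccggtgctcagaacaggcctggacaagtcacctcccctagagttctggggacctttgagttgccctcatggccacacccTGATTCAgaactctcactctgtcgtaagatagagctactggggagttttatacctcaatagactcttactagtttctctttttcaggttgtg

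The Icosl window held 26 CpG dinucleotides, the Cd274 window 15 and the Cd80 window 3. Among the other members with a window, Cd276 held the most, 39, with Vsir at 15 and Pdcd1lg2 and Havcr2 at 3 each. The counts therefore did not follow the size of the log2 change, which was 0.07 for Cd276 and -0.30 for Vsir. Over 32841 such RefSeq windows the median was 7, and 83.1% held fewer CpGs than that of Icosl. DNA methylation was not measured in these samples. A set of 6 motifs was searched on both strands in the 7 members that have a window in the table (Cd40 and Cd86 have none there): GAAANNGAA (an interferon-stimulated response element core), TTCNNNGAA (a gamma-activated sequence), GGGANTTCC (NF-kB), TGANTCA (AP-1), GAGGAAGT (PU.1) and GGGCGG (a GC box). The GC box was present once in Icosl, at -59 from the start, and once in Cd274, at -31. Cd276 held 4 GC boxes and Vsir 3, and 35.7% of all windows held the motif. The AP-1 pattern, which leaves the middle base open, matched in Cd80, at -42, and in Havcr2, against 7.81% of all windows. Both matches read TGATTCA, whereas the AP-1 consensus has C or G in the middle, so neither is a consensus AP-1 site. Havcr2 also held the PU.1 letters (3.2% of all windows). The interferon element core matched once among the 7, in Cd274 at -76 on the minus strand (TTCGGTTTC as printed), and 8.56% of all windows held it. With both GAAA repeats complete, 2 bases apart, 0 of the 7 windows matched, against 3.44% of all windows. The gamma-activated sequence, in 8.3% of all windows, and the NF-kB letters, in 1.68%, had no match in the 7. No match overlapped another. These matches describe letters in a short window and not binding.

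Values are log2 expression as deposited, and each difference (Tet2-deficient minus wild-type) is given ± its standard error from limma, with a 95% confidence interval. Array medians ran from 3.47 to 3.66, and Pearson correlations between arrays over all features from 0.983 to 0.991. The targeted gene itself, Tet2, read 5.55, 5.25 and 5.75 in the arrays labelled Tet2-deficient, against 5.40, 5.07 and 5.10 in the wild-type arrays, and so was not reduced (log2 change 0.32 ± 0.16, limma adjusted p = 0.365). With neither the deletion nor the probe positions at hand, that feature checks nothing, and every direction rests on the labels. Of 8 measured macrophage markers 1 rose (the integrin Itgam, log2 change 0.97 ± 0.14, limma adjusted p = 0.0211; called in 1 of the 6 fits that left out an array), and 1 (Cd163) lay below the array median in all 6 arrays. The changes were positive for 4 of the 8 and negative for 4, and 0.952% of all features were called in either direction. The genotypes did not overlap for 5 of the 8 (22.0% of all features), and 4 had an unadjusted p under 0.05 (16.0% of all features). Among these, the growth factor receptor Csf1r had 0.58 ± 0.11 (limma adjusted p = 0.0543) and the mannose receptor Mrc1 had -0.70 ± 0.15 (limma adjusted p = 0.0701). Bulk arrays cannot tell a different number of cells of a type from a different amount of RNA per cell.

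Icosl was 2.21-fold higher in Tet2-deficient macrophages (95% interval 1.65 to 2.95). Its log2 level was 7.66, 7.11 and 7.13 in the Tet2-deficient arrays, against 6.28, 5.87 and 6.33 in the wild-type arrays. The lowest Tet2-deficient value stood above the highest wild-type value, and within the Tet2-deficient group replicate 1 was the highest. Group means were 7.30 ± 0.31 in Tet2-deficient and 6.16 ± 0.25 in wild-type macrophages (SD, n = 3 each). The log2 change of 1.14 ± 0.19 had a limma adjusted p = 0.0290, rank 125 of all features by p, and 65 of the 240 features that passed the threshold of 0.05 changed by at least as much. Icosl was the 1 member of 9 that passed (11.1%), where 0.952% of all features did. The call rests on all 6 arrays together: it was lost whichever array was left out, with adjusted p between 0.0530 (without Tet2-deficient replicate 2) and 0.0972 (without Tet2-deficient replicate 3), although the log2 change stayed between 0.96 and 1.24 in these 6 fits.

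**Figure D1:**
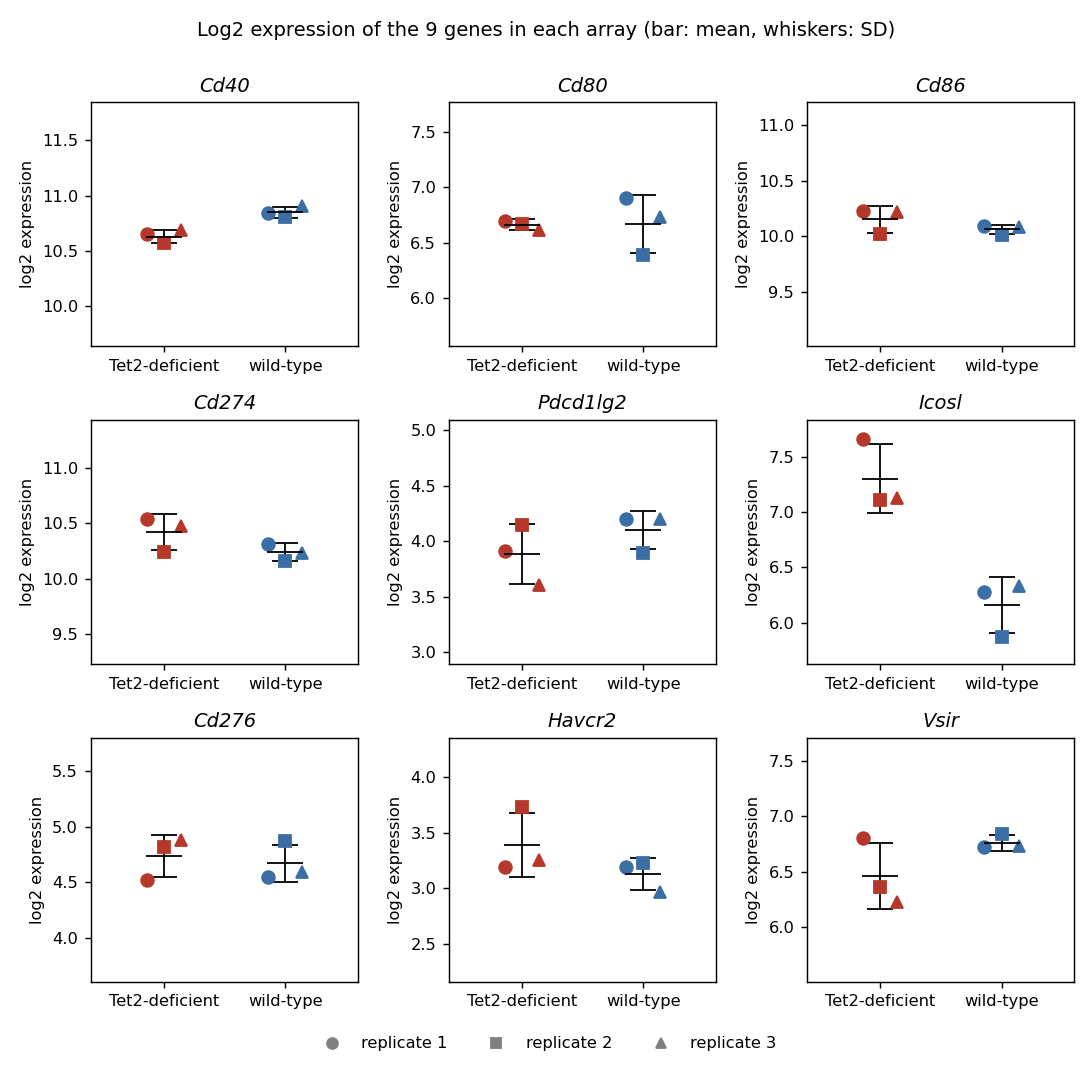
Log2 expression of each of the 9 genes (vertical axes, each spanning the same number of log2 units) in the Tet2-deficient arrays (red, left) and the wild-type arrays (blue, right). Symbols mark replicates 1 to 3 of each group, the bar is the mean and the whiskers are the SD (n = 3). Icosl, at 7.11 to 7.66 against 5.87 to 6.33, shows the widest gap, and Cd40, at 10.57 to 10.69 against 10.81 to 10.91, is the only other gene whose groups do not overlap.

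Markers of other cell populations were read beside this difference. Over all features, 0.952% were called and 16.0% had an unadjusted p under 0.05, and the counts below are to be read against these shares. Of 9 measured markers of resident peritoneal macrophages 2 rose, coagulation factor V (F5, log2 change 1.83 ± 0.23, limma adjusted p = 0.0152) and the phosphatidylserine receptor Timd4 (1.19 ± 0.17, adjusted p = 0.0219). F5 kept its call in 4 of the 6 fits that left out an array, and Timd4 in 1. All 9 had a positive change, with a median of 0.76. Groups did not overlap for 5 of the 9 (22.0% of all features). They overlapped for Gata6, Selp, Garnl3 and Rarb, whose log2 changes were 0.06 to 0.23. The summed linear signal of the 9 was 828 to 1040 in Tet2-deficient arrays, against 410 to 583 in wild-type arrays. Timd4 was the highest of the 9 in every array. For 6 monocyte markers, of which 0 passed in limma (1 at an unadjusted p under 0.05), the sums were 308 to 442 in Tet2-deficient arrays, against 227 to 254 in wild-type arrays. The surface antigen gene Ly6c2 was the highest of the 6 in every array, at 8.21, 7.40 and 7.74 in Tet2-deficient arrays, against 7.01, 6.59 and 6.73 in wild-type arrays (log2 change 1.01 ± 0.20, limma adjusted p = 0.0558). It was the only one of the 6 whose genotypes did not overlap, and the other 5 had log2 changes of -0.22 to 0.44. Among 10 mesothelial and fibroblast markers 0 passed in limma (1 at an unadjusted p under 0.05), and 8 had a positive change, with a median of 0.26. The sums were 197 to 531 in Tet2-deficient arrays, against 177 to 251 in wild-type arrays, so the ranges overlapped. The highest sum was that of Tet2-deficient replicate 2, where Col1a1 read 7.37, against 5.58 and 5.26 in Tet2-deficient replicates 1 and 3. The marker at an unadjusted p under 0.05 was the matrix proteoglycan gene Dcn, at 6.18, 6.88 and 5.57 in Tet2-deficient arrays, against 5.02, 5.12 and 4.71 in wild-type arrays (log2 change 1.26 ± 0.28, limma adjusted p = 0.0715), without overlap. The part of these markers in the Icosl difference was not tested. B cells and dendritic cells also carry ICOS ligand. The 7 measured B cell markers summed to 56.2 to 84.7 in Tet2-deficient arrays, against 60.1 to 71.5 in wild-type arrays, and the 12 dendritic cell markers to 365 to 455 in Tet2-deficient arrays, against 347 to 464 in wild-type arrays. In both lists the ranges overlapped, 0 markers passed in limma (1 B cell marker and 0 dendritic cell markers had an unadjusted p under 0.05), and 4 of the 7 and 7 of the 12 markers lay below the array median in all 6 arrays. Of 31 markers of T cells, NK cells, neutrophils, and eosinophils with mast cells, 0 passed in limma (1 at an unadjusted p under 0.05).

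Among genes above the median level, the 3 whose log2 values followed those of Icosl most closely over the 6 arrays were the RNA-binding protein gene Ptbp1 (Pearson r = 0.9979), Tti1, which encodes a partner of PI3K-related kinases (0.9969), and the vesicle-sorting gene Vps33a (0.9969). They are the highest of 10671 candidates over 6 arrays in 2 groups, so such values describe likeness of pattern only. Ptbp1 had a log2 change of 0.49 ± 0.13 (limma adjusted p = 0.102), smaller than that of Icosl. Of the protein-coding genes on either side of Icosl in RefSeq, Dnmt3l, a cofactor of DNA methyltransferases, read 3.39, 3.54 and 3.17 in Tet2-deficient arrays, against 3.82, 3.59 and 3.57 in wild-type arrays (log2 change -0.30 ± 0.14, limma adjusted p = 0.336). Gatd3a on the other side had a log2 change of 0.02 ± 0.16 (limma adjusted p = 0.970).

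The classical B7 pair did not separate the genotypes. Cd80 read 6.70, 6.67 and 6.61 in Tet2-deficient arrays, against 6.90, 6.39 and 6.73 in wild-type arrays. The Tet2-deficient values lay inside the wild-type range, and the log2 change was -0.01 ± 0.15 (95% interval -0.34 to 0.32, limma adjusted p = 0.977). This sign turned to 0.05 when arrays were centred on their medians. Cd86 read 10.23, 10.02 and 10.22 in Tet2-deficient arrays, against 10.09, 10.01 and 10.08 in wild-type arrays. Its groups overlapped, and the log2 change was 0.10 ± 0.12 (95% interval -0.17 to 0.36, limma adjusted p = 0.750). The ratio of Cd80 to Cd86, which compete for the same receptors, differed by -0.11 on the log2 scale (exact permutation test, two-sided, p = 0.6, with 0.1 the smallest p that 3 arrays against 3 allow).

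Cd40 was slightly lower in every Tet2-deficient array, but the difference did not pass. Its log2 level was 10.65, 10.57 and 10.69 in Tet2-deficient arrays, against 10.84, 10.81 and 10.91 in wild-type arrays. Both groups were tight, with means of 10.63 ± 0.06 in Tet2-deficient and 10.85 ± 0.05 in wild-type macrophages (SD, n = 3 each), and they did not overlap. The log2 change was -0.22 ± 0.11 (95% interval -0.47 to 0.03, limma adjusted p = 0.379), and no alternative fit with adjusted p carried it past the threshold. With Icosl it made 2 of 9 members whose groups did not overlap, where 22.0% of all features had such groups, so this count is near the background.

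The ligands of PD-1 showed no difference past the threshold either. Cd274, which encodes PD-L1, read 10.54, 10.24 and 10.47 in Tet2-deficient arrays, against 10.31, 10.16 and 10.23 in wild-type arrays. The lowest Tet2-deficient array lay between wild-type replicates 1 and 3, and the log2 change was 0.18 ± 0.13 (95% interval -0.10 to 0.46, limma adjusted p = 0.544). Pdcd1lg2, which encodes PD-L2 and lies next to Cd274 on chromosome 19, read 3.91, 4.15 and 3.61 in Tet2-deficient arrays, against 4.20, 3.90 and 4.20 in wild-type arrays. Its groups overlapped, with a log2 change of -0.21 ± 0.16 (95% interval -0.58 to 0.15, limma adjusted p = 0.579). The log2 ratio of Cd274 to Pdcd1lg2, taken as the deviation from its mean over the arrays, was 0.29, -0.24 and 0.53 in Tet2-deficient arrays, against -0.22, -0.07 and -0.30 in wild-type arrays. The difference of 0.39 had p = 0.3 in the two-sided exact permutation test. Pdcd1lg2 was dim, at percentiles 51.9 to 61.3 of the features in the arrays, whereas Cd274 stood at 99.2 to 99.5. Likeness to Cd274 was highest for the zinc transporter Slc39a6 (Pearson r = 0.9994), the nuclear pore protein Ranbp2 (0.9978) and Aktip (0.9955), again over 6 arrays and the same number of candidates, and their log2 changes of 0.36, 0.20 and 0.15 did not pass.

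Cd86 and Cd274 had the highest correlation among the 36 pairs of members over the 6 arrays (Pearson r = 0.97, Spearman rho = 0.94). Over the 4 arrays left without the 2 farthest from the Cd86 median r was 0.80, and other pairs treated in the same way were higher, such as Icosl with Cd276 (0.99 without the 2 arrays farthest from the Icosl median, -0.14 over all 6). In either genotype replicate 1 was the highest and replicate 2 the lowest for both genes. The arrays share their normalization, and this is a description across 2 groups.

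The remaining inhibitory members had smaller signals or overlapping groups. Vsir read 6.80, 6.36 and 6.23 in Tet2-deficient arrays, against 6.72, 6.84 and 6.73 in wild-type arrays. Replicates 2 and 3 of the Tet2-deficient group were below all wild-type arrays while replicate 1 lay among them, and the log2 change was -0.30 ± 0.16 (95% interval -0.66 to 0.06, limma adjusted p = 0.407). Havcr2 read 3.19, 3.73 and 3.26 in Tet2-deficient arrays, against 3.19, 3.23 and 2.97 in wild-type arrays, and Tet2-deficient replicate 2 stood above the others. The log2 change of Havcr2 was 0.26 ± 0.16 (95% interval -0.10 to 0.63, limma adjusted p = 0.482), and 5 of the 6 arrays had it below the array median, where folds are understated. Cd276, which encodes B7-H3, read 4.52, 4.82 and 4.88 in Tet2-deficient arrays, against 4.55, 4.87 and 4.59 in wild-type arrays. Its groups overlapped, with a log2 change of 0.07 ± 0.15 (95% interval -0.26 to 0.40, limma adjusted p = 0.854). Over the 8 members that did not pass, the 95% intervals of the fold ran from 0.634 (Vsir, lower bound) to 1.55 (Havcr2, upper bound), which leaves room for moderate differences in either direction.

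**Figure D2:**
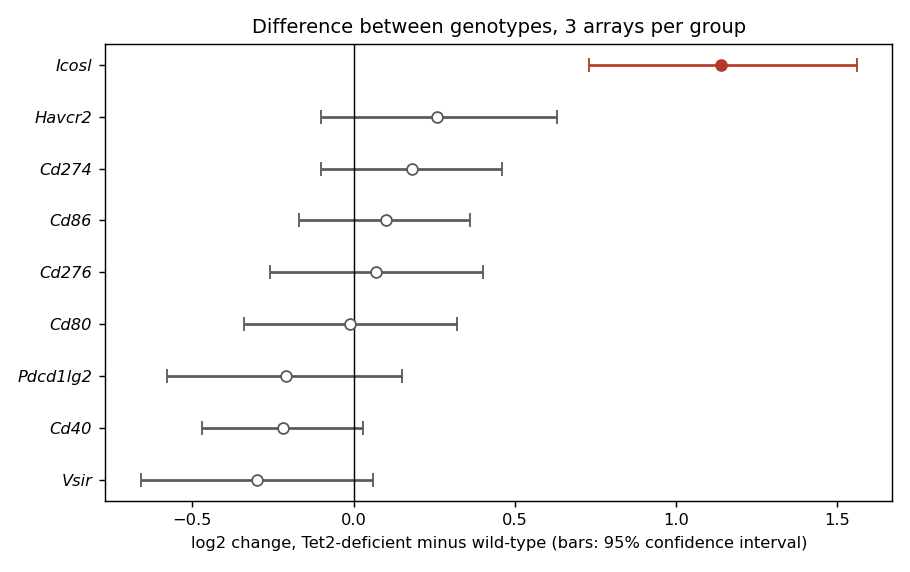
Log2 change of each gene, Tet2-deficient minus wild-type, with its 95% confidence interval from limma (n = 3 arrays per group), ordered by size. Icosl (filled, 1.14, interval 0.73 to 1.56) is the only gene with a limma adjusted p under 0.05, and the intervals of the other 8 include 0.

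Genes of the same signalling layer were read from 6 lists. Among 14 measured other relatives of the B7 and CD28 families 0 passed in limma (2 at an unadjusted p under 0.05, as for 16.0% of all features), with a median log2 change of -0.08 where all features had -0.04. The inhibitory receptor gene Cd200r1 read 6.03, 5.57 and 5.79 in Tet2-deficient arrays, against 6.62, 6.33 and 6.93 in wild-type arrays. Its groups did not overlap, and its log2 change was -0.83 ± 0.18 (limma adjusted p = 0.0673). Vsig4, a B7-related complement receptor that is also on the list of resident macrophage markers, had a log2 change of 0.76 ± 0.19 (limma adjusted p = 0.103).

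Among 10 co-stimulators of the TNF family 0 passed in limma (1 at an unadjusted p under 0.05), with a median of -0.05. The smallest p was that of Tnfsf15, which encodes the T cell co-stimulator TL1A (log2 change 0.65 ± 0.20, limma adjusted p = 0.150). Tnfsf9, the 4-1BB ligand gene, had -0.27 ± 0.12 (limma adjusted p = 0.338). Among 20 measured other checkpoint ligands and their relatives 1 rose and 0 fell (0.952% of all features were called), with a median of -0.04. An unadjusted p under 0.05 was found for 7 of the 20 (16.0% of all features). The rise was that of Timd4, a TIM family relative of Havcr2, which read 8.99, 9.33 and 9.37 in Tet2-deficient arrays, against 8.38, 7.94 and 7.82 in wild-type arrays. It lost its call in 5 of the 6 fits that left out an array (adjusted p 0.0122 to 0.108). Pvr, whose product is a ligand of TIGIT and CD226, had a log2 change of 0.61 ± 0.12 with groups that did not overlap (limma adjusted p = 0.0553).

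Among 12 measured components of CD40 signalling 1 rose and 0 fell (0.952% of all features were called), with 10 positive changes and a median of 0.12. An unadjusted p under 0.05 was found for 4 of the 12 (16.0% of all features). Traf1, an adaptor bound to CD40 and other TNF receptors, was 1.83-fold higher, at 8.89, 8.31 and 8.61 in Tet2-deficient arrays, against 7.68, 7.80 and 7.72 in wild-type arrays (log2 change 0.87 ± 0.16, limma adjusted p = 0.0389). It kept its call in 1 of the 6 fits that left out an array (adjusted p 0.0401 to 0.155). Rel, an NF-kB subunit, had 0.44 ± 0.16 (limma adjusted p = 0.220). Among 18 measured genes that lead from interferon gamma to PD-L1 0 passed in limma (5 at an unadjusted p under 0.05), with 14 positive changes and a median of 0.17. Ciita, the master regulator of MHC class II genes, had 0.89 ± 0.19 (limma adjusted p = 0.0615) and the transcription factor Irf8 had -0.45 ± 0.13 (limma adjusted p = 0.124). Jak2, the kinase of the interferon gamma receptor, had 0.18 ± 0.13 (limma adjusted p = 0.553).

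Genes on the T cell side of these signals, receptors and the ligand gene Cd40lg, were also read. Tnfrsf4, Tnfrsf9 and Tnfrsf18 lay above the array median in all 6 arrays. Which cells gave the signal of this list was not tested. Of 13 measured, among them Cd28, Ctla4, Icos and Pdcd1, 0 passed in limma (2 at an unadjusted p under 0.05), and 7 lay below the array median in all 6 arrays. Their summed linear signal was 115 to 126 in Tet2-deficient arrays, against 120 to 131 in wild-type arrays. The smallest p values were those of the co-stimulatory receptor Cd27 (log2 change -0.40 ± 0.13, limma adjusted p = 0.179) and the inhibitory receptor Tigit (0.38 ± 0.13, limma adjusted p = 0.198), both dim.

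**Figure D3:**
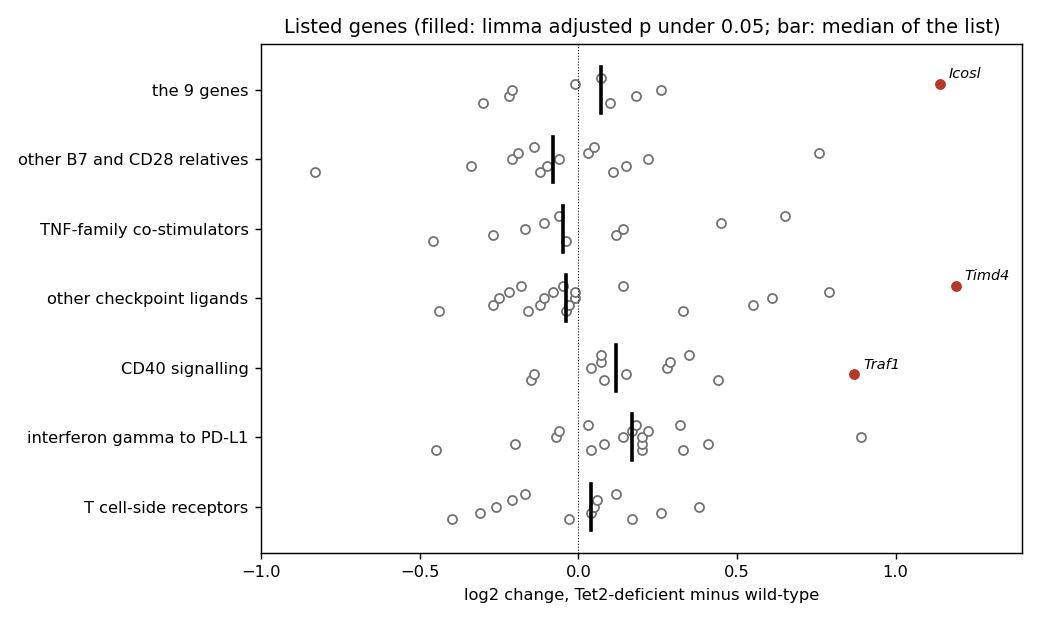
Log2 change, Tet2-deficient minus wild-type, of every measured gene of the 9 members and of the 6 lists around them; each circle is a gene and the black bar is the median of its row. The 3 filled circles, Icosl (1.14), Timd4 (1.19) and Traf1 (0.87), are the genes with a limma adjusted p under 0.05.

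**Figure D4:**
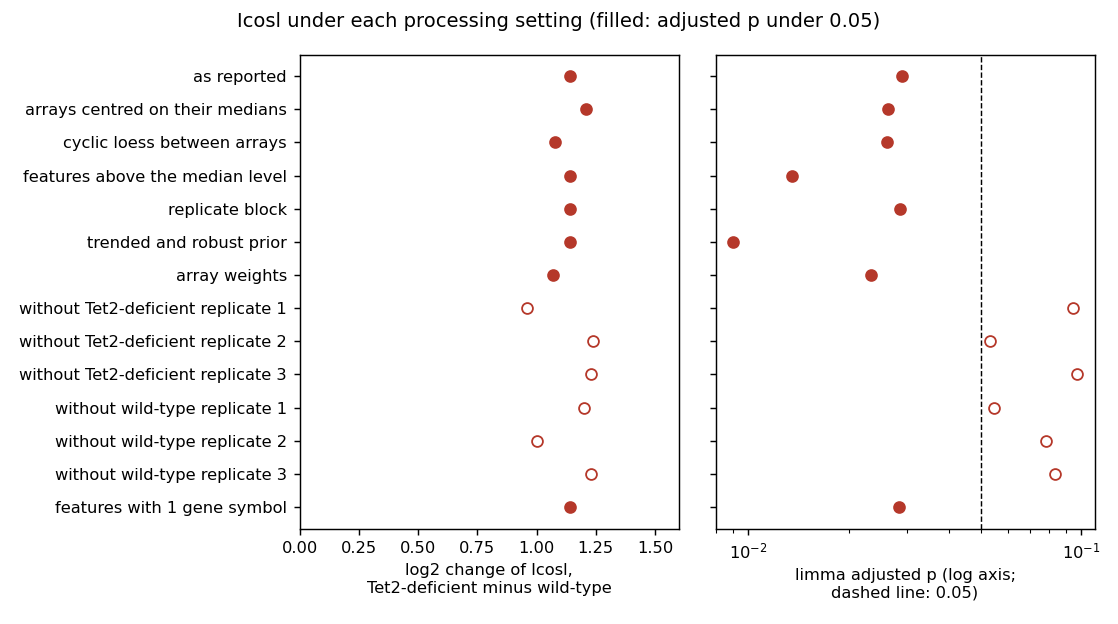
Log2 change of Icosl, Tet2-deficient minus wild-type (left axis panel), and its limma adjusted p on a log axis (right panel). Rows are the fit as reported and each other setting, apart from those that change only the threshold. Filled circles have an adjusted p under 0.05. The change stays between 0.96 and 1.24, and the adjusted p lies above the dashed line at 0.05 in the 6 fits that leave out an array and below it in the others.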

How the data were processed

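The deposited values are log2 expression per gene, which the authors made with RMA in affy 1.36.1 (tools named in the submitters' processing notes). RMA corrects background, normalizes the arrays to each other and summarises probes, so a shift common to all genes is lost. The sources used here give no array type or filter. The 6 arrays were used as deposited, 3 per group, labelled as biological replicates. Of 25206 features 23185 had 1 symbol in the platform annotation and 0 had several, and 86 of 93 further listed genes and 83 of 89 markers were measured. Promoter windows are RefSeq's, and the motifs were chosen after the data were examined. This includes the shortened interferon element and the AP-1 pattern with its open middle base.

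Every feature was fitted in limma 3.58.1 (R 4.3.3; lmFit, then eBayes; two-sided, Benjamini-Hochberg over all features, threshold 0.05), checked on simulated data. Members and lists were chosen with earlier results of these data known. Named were all members, Tet2, listed genes past the threshold or of the 2 smallest p per list, the 3 genes most like Icosl and Cd274, and neighbouring genes. Other genes (Jak2, the markers and examples) were named after their values were seen. Alternatives were median centring, cyclic loess, dim features left out, features with 1 symbol only, a replicate block, a trended and robust prior, array weights, other thresholds and each array left out. Same-numbered arrays deviated together with correlations of 0.08, 0.19 and 0.02, so the numbers were not taken as pairs.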

Additional observations from a re-analysis of the deposited data

How the results depend on the processing

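Icosl kept its call under all alternatives that used the 6 arrays (adjusted p 0.00898 to 0.0290, and 0.0286 with a replicate block) and lost it in the 6 fits that left out an array (log2 change 0.96 to 1.24). Fewer arrays leave fewer degrees of freedom, and the cause of this loss was not tested. The count of members past the threshold was 0 in each of those fits. The other 8 members passed under none of the alternatives, and Cd80 changed sign after median centring (0.05) and when an array was left out (-0.16 to 0.10). Over all features the count was 240 as reported, 846 without dim features, 814 with a trended and robust prior, 498 with array weights, 791 at an adjusted p under 0.1, 4035 at an unadjusted p under 0.05 and 11 to 155 with an array left out. The share of higher features among calls was 67.9% as deposited, 78.8% after median centring and 59.6% with cyclic loess.

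Counts in the lists moved as follows, and the cause was not tested. Other B7 and CD28 relatives had 1 call with cyclic loess, with a trended and robust prior, with array weights and at an adjusted p under 0.1, 2 without dim features or at an unadjusted p under 0.05, and 0 to 1 with an array left out. The other checkpoint ligands had 4 without dim features, with a trended and robust prior or at an adjusted p under 0.1, 2 with array weights, 7 at an unadjusted p under 0.05 and 0 to 1 with an array left out. CD40 signalling had 0 with a replicate block, where Traf1 lost its call (adjusted p = 0.0576), 4 at an unadjusted p under 0.05 and 0 to 1 with an array left out. The path from interferon gamma to PD-L1 had 1 without dim features, with a replicate block or at an adjusted p under 0.1, 2 with a trended and robust prior, 5 at an unadjusted p under 0.05 and 0 to 1 with an array left out. TNF-family co-stimulators had 1 and T cell-side genes 2 at an unadjusted p under 0.05. With the replicate block, Ciita (adjusted p = 0.0404), Mrc1 (0.0480), Ly6c2 (0.0286) and Dcn (0.0341) passed, calls of the members, F5, Timd4 and Itgam stayed as reported, and neither ratio changed sign (-0.11 and 0.39). Over the 15 alternatives Ly6c2 passed in 8, Dcn in 6, and Csf1r and Mrc1 in 5 each. These counts include the thresholds of an adjusted p under 0.1 and an unadjusted p under 0.05, which change no fit. At an adjusted p under 0.05 Ly6c2 passed in 6, Dcn in 4, and Csf1r and Mrc1 in 3 each.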

Other observations

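Around Cd274 and Pdcd1lg2 on chromosome 19, the neighbouring genes did not follow a common direction. Plgrkt, a plasminogen receptor gene whose RefSeq span overlaps that of Cd274, read 6.25, 5.85 and 6.00 in Tet2-deficient arrays, against 6.25, 6.61 and 6.89 in wild-type arrays (log2 change -0.55 ± 0.18, limma adjusted p = 0.176). Ric1, on the far side of Pdcd1lg2, read 8.23, 7.89 and 8.24 in Tet2-deficient arrays, against 7.79, 7.76 and 7.79 in wild-type arrays (log2 change 0.34 ± 0.13, limma adjusted p = 0.248). Next to Vsir, the gene of the lysosomal protein prosaposin, Psap, had a log2 change of -0.17 ± 0.11 (limma adjusted p = 0.502), and Cdh23, whose span overlaps that of Vsir, had -0.14 ± 0.12 (limma adjusted p = 0.627). Slc29a3, a nucleoside transporter gene on the other side of Vsir, read 8.65, 8.19 and 8.57 in Tet2-deficient arrays, against 8.12, 8.02 and 8.16 in wild-type arrays, without overlap (log2 change 0.37 ± 0.14, limma adjusted p = 0.247). Gm17455, whose span also overlaps that of Vsir, had 0.05 ± 0.11 (limma adjusted p = 0.867).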
